A study of Mus musculus with 31 samples.

Results

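The results concern 2 mature miRNAs of the miR-135 precursors, mmu-miR-135b-5p and mmu-miR-135a-1-3p, in mouse lung after cigarette smoke. They are 2 of 650 miRNA entries on the array and hold 6 of its 1857 probes, 2 for miR-135b-5p and 4 for miR-135a-1-3p. Both were found by their names in the scanner files, and both had been selected on their smoke minus control differences in these same arrays, so those differences are given as a description with no test. Female BALB/c mice breathed room air or were exposed to cigarette smoke, in both cases over 4, 6, 8 or 12 weeks. Total lung RNA carrying the dye Cy3 was then measured on Agilent miRNA arrays of 1 colour. BALB/c is an inbred laboratory strain, and no gene was altered in any group. The 8 groups hold 4 arrays each, except 12 weeks smoke with 3, which gives 15 smoke and 16 control arrays. Room air at the same duration is the control of each smoke group. The sources used here give neither the age at exposure nor the cigarette dose, nor whether each array is a separate mouse. A p-value therefore covers the spread between these arrays, which may be technical, and nothing wider.

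A miRNA gene is transcribed into a hairpin, and either strand of its stem can become a mature miRNA, named 5p or 3p after the arm it comes from. Bases 2 to 8 of the mature strand, the seed, pair with target messages and decide most of which messages are repressed. miR-135b has been described in mouse lung as rising with inflammation driven by interleukin-1 receptor signalling and as acting back on that receptor. miR-135a-1-3p is the opposite arm of the Mir135a-1 hairpin from miR-135a-5p. The RefSeq table, on GRCm38.p6, places the Mir135b hairpin at chr1:132198088-132198184 on the plus strand, inside the annotated spans of the protein-coding gene Lemd1 and the long noncoding gene Gm29695. It places the Mir135a-1 hairpin at chr9:106154124-106154213 on the plus strand, inside the spans of the protein-coding gene Glyctk and the long noncoding gene D030055H07Rik. Whether a hairpin lies in an exon or an intron of these genes was not examined here. For Glyctk and D030055H07Rik the annotated strands are plus and minus, so not both run in the direction of the Mir135a-1 hairpin. Of the 2 miRNAs, 1 has a mature entry in that table, miR-135a-1-3p at chr9:106154179-106154200. It is shown with its partner arm and with the 3p arms of the other miR-135 hairpins, seeds in capitals, because the arms of one family need not share a seed.
miR-135a-1-3p: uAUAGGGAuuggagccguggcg
miR-135a-5p: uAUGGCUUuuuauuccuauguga
miR-135b-3p: aUGUAGGGcuaaaagccauggg
miR-135a-2-3p: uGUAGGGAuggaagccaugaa
The 4 seeds differ from one another. The Mir135a-1 hairpin, 90 bases long, carries miR-135a-1-3p at bases 56 to 77, in capitals here, and has miR-135a-5p on its other arm.
Mir135a-1 hairpin: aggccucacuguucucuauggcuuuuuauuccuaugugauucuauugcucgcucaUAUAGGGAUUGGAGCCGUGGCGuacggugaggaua
The arms shown thus differ in seed. miR-135b-5p is not among them, so its seed was not compared here with that of any other arm. The entries measured here are described separately.

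The processed signal is the scanner software's background-subtracted intensity. Each array was divided by its own 75th percentile over 385 probes detected on all 31 arrays, which ranged from 1018 to 3725 between arrays. The scaled signal below is that quotient times 1000. The smoke and control arrays lay in separate lines of positions on the 4 slides, with the duration as the column, so position and group cannot be told apart. Markers of lung tissue were present on every array: the summed scaled level of the endothelial miR-126 arms was at least 26200, and that of 8 epithelial miRNAs of the miR-200 and miR-183 families at least 6508. Some arrays stood apart. Smoke array 3 of 12 weeks gave a scaled signal of 2966 for the liver miRNA miR-122-5p, which was under the floor of detection on all 16 control arrays. Smoke arrays 2 and 3 of 4 weeks had the lowest summed leukocyte miRNAs of all arrays, 5107 and 5176, against 7040 or more on the control arrays. Control arrays 3 and 4 of 6 weeks had summed multiciliated miRNAs of 1262 and 1268, against 2386 and 2639 on the other 2 of that group, and higher erythroid (82150 and 92030, against 67170 and 62830) and endothelial sums (35780 and 37000, against 30570 and 29990). The miR-135 differences that rest on these arrays are given with and without them.

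mmu-miR-135b-5p was bright on every smoke array and close to background on every control array. With its brighter probe, A_54_P2590, the processed signal on the smoke arrays was 427, 135.1, 169 and 376 at 4 weeks. It was 322, 449, 342 and 407 at 6 weeks, and 158, 260, 205 and 403 at 8 weeks. The 3 arrays of 12 weeks smoke read 681, 596 and 326. On the control arrays the same probe read 6.87, 12.3, 9.23 and 18.5 at 4 weeks and 12.8, 20.3, 5.73 and 5.05 at 6 weeks. It read 12.2, 21.9, 12.9 and 11.0 at 8 weeks and 8.26, 5.45, 8.05 and 6.69 at 12 weeks. The dimmest smoke array thus stood at 135.1 and the brightest control array at 21.9, and the ranges did not overlap at any duration. In all 270 miRNAs tested, 1.48% had every smoke array above every control array, and all smoke arrays lay above all control arrays of the same duration in 23.7% at 4 weeks, 15.9% at 6 weeks, 4.81% at 8 weeks and 16.7% at 12 weeks. Because miR-135b-5p was selected on this contrast, nothing is read from its place among them. In whole lung, more cells with a miRNA and more of it per cell cannot be told apart.

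**Figure D1:**
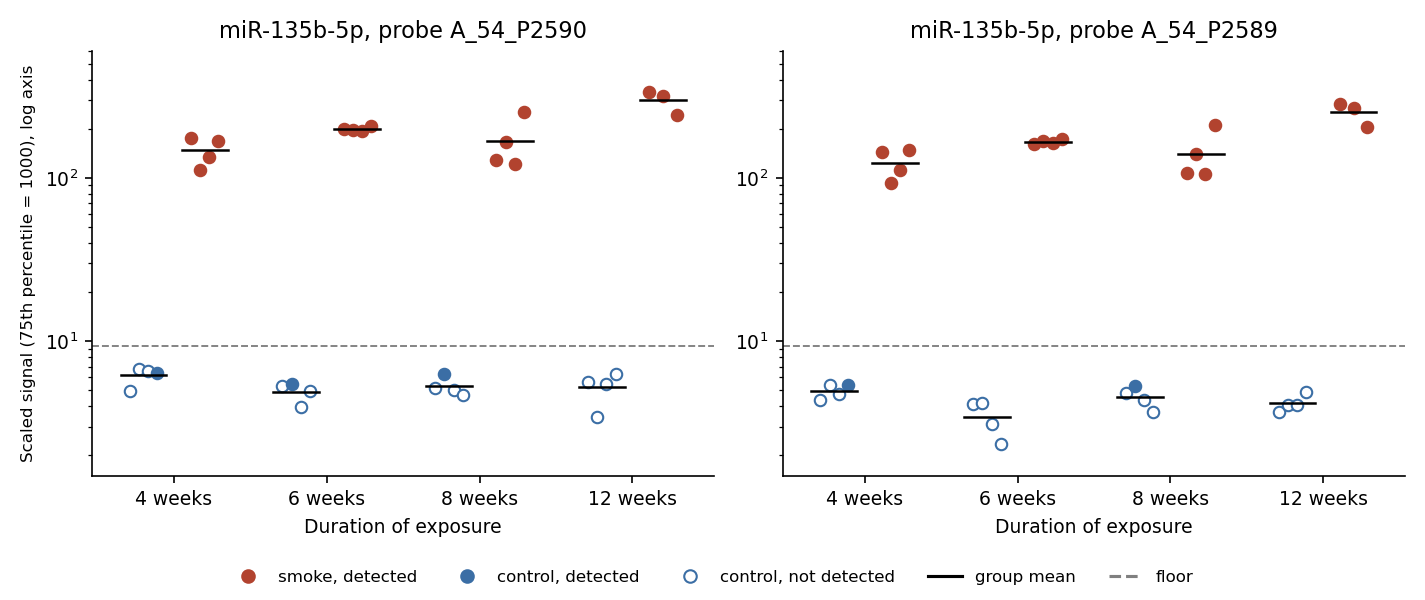
Scaled signal of both miR-135b-5p probes on each array (log axis; 1000 is the array's 75th percentile), by duration, in smoke (red) and control (blue) lungs. Filled points are detected arrays, open points are not detected, bars are group means and the dashed line is the floor at 9.36. With probe A_54_P2590 the smoke arrays lie between 112.5 and 335.9 and the control arrays between 3.45 and 6.73.

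The detection marks show how near to background the control signal lay. A probe was counted as detected on an array when 50% or more of its spots were marked well above background by the scanner software. On the 15 smoke arrays, all 143 usable spots of A_54_P2590 and all 147 of A_54_P2589 carried that mark. On the 16 control arrays, 29 of 152 spots of A_54_P2590 (19.1%) and 18 of 148 spots of A_54_P2589 (12.2%) carried it. These spots were concentrated on control array 4 of 4 weeks, array 2 of 6 weeks and array 2 of 8 weeks, where A_54_P2590 had 10 of 10, 7 of 7 and 10 of 10. Those 3 arrays had the highest 75th percentiles of the 31 arrays, 2875, 3725 and 3472. A second mark of the software asks only whether a spot is positive and significantly above the background near it. By that mark 145 of 152 control spots of A_54_P2590 (95.4%) and 136 of 148 of A_54_P2589 (91.9%) were positive. For miR-135a-5p, detected on no array, the same mark was set on 72.1% and 34.8% of the control spots of its 2 probes. No spot of miR-135b-5p was saturated.

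**Figure D2:**
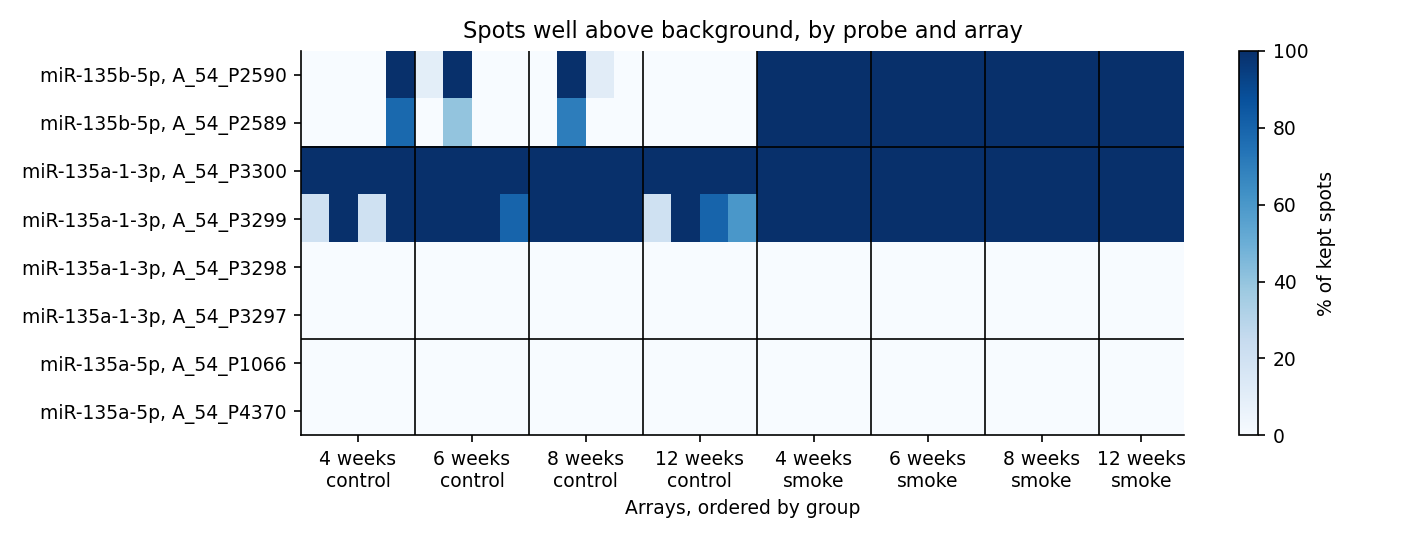
Share of usable spots marked well above background, as a percent, for the 8 probes of the miR-135 entries (rows) on the 31 arrays ordered by group (columns). Both miR-135b-5p probes are at 100% on all 15 smoke arrays and filled on few control arrays, A_54_P3300 is at 100% on all 31 arrays, and 4 probes are at 0 on every array.

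On the control arrays the dim signal of miR-135b-5p followed the brightness of the array. Across the 16 control arrays, the log2 processed signal of A_54_P2590 and the log2 75th percentile had a Pearson r of 0.922 (permutation p 1e-05, the smallest these permutations can give; adjusted over 5 relations 5e-05) and a Spearman rho of 0.891 (permutation p 2e-05, adjusted 0.0001). The slope was 1.07, where 1 means proportional signals, and r was 0.873 without the 2 arrays farthest from the median brightness. After division by the 75th percentile, the 16 control values lay between 3.45 and 6.73, all under the floor of 9.36. To set the floor, the lowest scaled signal of a detected probe was found on each array and the median of these taken, and smaller signals were set to it before log2 was taken. So the 3 control arrays with detected spots also count as floor values in the log2 differences. Each slide holds 4 control arrays at most, too few for the relation within a slide.

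The size of the difference depends on how the near-background controls are treated. Against the floor, smoke minus control was 3.95 ± 0.15, 4.41 ± 0.15, 4.10 ± 0.15 and 4.98 ± 0.16 log2 (model SE) at 4, 6, 8 and 12 weeks. Averaged with equal weight it was 4.36 ± 0.08 log2. As a bound on the scaled signals, with each control array at the higher of its own signal and its lowest detected signal, smoke was at least 14.9-fold higher at 4 weeks, 25.5-fold at 6, 22.99-fold at 8 and 26.4-fold at 12 weeks. With the second probe the bounds were at least 13.1, 22.7, 20.1 and 22.2-fold. Both probes put the lowest bound at 4 weeks. Scaled control signals taken as measured would put the ratios of A_54_P2590 at 23.6, 40.9, 30.5 and 58.2. The bounds hold only for scaled signals. Before scaling, the ratios of the mean processed signals were 23.6, 34.7, 17.7 and 75.2 for A_54_P2590 and 24.5, 39.3, 17.3 and 77.9 for A_54_P2589, so at 8 weeks both probes gave less than the bound. There the mean 75th percentile was 2692 on the control arrays and 1516 on the smoke arrays. The bounds of 6, 8 and 12 weeks lie closer together than these ratios. The control mean that enters the bound was -6.48 log2 at 12 weeks and -7.16 at 8 weeks, so the dim control arrays of 12 weeks allow less room below the smoke signal. The mean 75th percentile of those 4 arrays was 1394. Other treatments moved the size further. Normexp background correction was chosen in this form after seeing the data. It gave differences of 0.90, 2.59, 2.77 and 2.72 log2 at 4, 6, 8 and 12 weeks, with 8 weeks highest. The median of all miRNAs moved too, to -0.74, 0.02, 0.20 and -0.18 log2. Relative to that median the values were 1.643, 2.575, 2.563 and 2.892 log2, with 12 weeks highest. With the floor 4 times higher the differences were 1.95, 2.41, 2.10 and 2.98 log2.

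The difference was present on each slide. Averaged over durations, smoke minus control was 4.40 log2 on slide 1, 4.31 on slide 2 and 4.16 on slide 3, and 4.46 on slide 4, which has no 12 weeks smoke array. All 15 pairs of smoke and control arrays of the same slide and duration were positive, from 3.59 to 5.17 log2. With every control array at the floor, the values by slide and pair are smoke levels above a constant. Their sign thus adds nothing to the ranges, which did not overlap. In the authors' deposited table, where probe A_54_P2589 stands for miR-135b-5p, the control groups had means from 3.51 to 3.71 on its log2 scale. The smoke groups had means of 7.96 ± 0.33, 8.44 ± 0.08, 8.18 ± 0.40 and 8.98 ± 0.36 (SD, 4, 4, 4 and 3 arrays) at 4, 6, 8 and 12 weeks. The order of the durations was thus the same in both sources.

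Levels on the smoke arrays varied with the duration. With all control arrays at the floor, a difference between smoke durations equals a difference between the smoke minus control values on which miR-135b-5p was selected, so the levels by duration are a description too. From low to high, the mean scaled signal of A_54_P2590 was 147 ± 29.1 (SD, n = 4) at 4 weeks, 168 ± 59.8 (n = 4) at 8 weeks, 200 ± 5.72 (n = 4) at 6 weeks and 299 ± 49.2 (n = 3) at 12 weeks. The ranges of 4 and 8 weeks overlapped, as did those of 8 and 6 weeks, and the lowest array of 12 weeks (243) lay above the highest of 6 weeks (208). Array 4 of 8 weeks, at 252, lay above the lowest array of 12 weeks. The 4 arrays of 6 weeks were the tightest group, from 195 to 208.

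For miR-135b-5p, 12 minus 4 weeks of smoke was 1.03 ± 0.16 log2 (limma, adjusted p 0.000271), and the moderated F test of limma over the 4 durations gave an adjusted p of 0.00155. For the same reason nothing is read from these p-values. Among all 270 miRNAs, 2.59% passed that F test, 1.11% were higher at 12 than at 4 weeks and 1.48% lower. Within slides 1, 2 and 3, 12 minus 4 weeks was 0.94, 1.5 and 0.86 log2. They have a further limit. The 16 control arrays are all at the floor and have no spread, and the model pools them with the smoke arrays, so its SE is too small. With only the 15 smoke arrays fitted, 12 minus 4 weeks was 1.03 ± 0.22 log2 with an adjusted p of 0.0716, and the F test had an adjusted p of 0.364. In the authors' deposited table, whose controls have spread, the difference was 1.02 ± 0.21 log2 (limma adjusted p 0.00241), and with the floor 4 times lower its adjusted p was 0.00593. The adjusted p was 0.698 without scaling, 0.209 with the scanner's summed signal and 1.0 with normexp background correction. Without smoke arrays 2 and 3 of 4 weeks, the 2 lowest arrays of that group, the difference was 0.79 log2 (adjusted p 0.0155), and without smoke array 3 of 12 weeks it was 1.17. Some other miRNAs were low on the former arrays. Beside their leukocyte sums, given above, their multiciliated sums were 966.5 and 1273. Their epithelial sums, 8677 and 7730, were the highest of their group. Their 75th percentiles, 1201 and 1259, were the lowest of that group. miR-34c-5p, a multiciliated miRNA, was 0.75 log2 higher at 12 than at 4 weeks of smoke (limma adjusted p 0.0306), and 0.43 log2 higher without these 2 arrays, where it did not pass (adjusted p 0.371). The median of the 3 multiciliated miRNAs was 0.751 log2, against -0.0564 over all miRNAs tested. The part of these lists in the miR-135b-5p values was not tested. On smoke array 4 of 8 weeks, the highest of its group for miR-135b-5p, the leukocyte sum was 10750, the highest of all arrays. The multiciliated sum of that array was 1782.

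mmu-miR-135a-1-3p gave a weak signal that was detected on every array. Its brightest probe, A_54_P3300, read 66.9, 31.7, 48.7 and 62.0 on the smoke arrays of 4 weeks. It read 50.2, 58.6, 49.8 and 51.7 at 6 weeks, 37.5, 41.6, 40.4 and 53.4 at 8 weeks, and 37.4, 37.1 and 36.7 at 12 weeks. The control arrays read 20.6, 33.7, 24.4 and 37.1 at 4 weeks, 44.7, 59.7, 39.0 and 33.5 at 6 weeks, 36.7, 46.5, 36.0 and 32.1 at 8 weeks, and 26.3, 30.5, 28.2 and 23.5 at 12 weeks. These are processed signals before scaling. All 15 smoke and 16 control arrays overlapped broadly, and only at 12 weeks did every smoke array lie above every control array before scaling.

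The 4 probes of miR-135a-1-3p did not give the same information. A_54_P3300 had 154 of 154 usable spots well above background, and A_54_P3299 had 75 of 75 on the smoke arrays and 62 of 78 on the control arrays (79.5%). A_54_P3299 was detected on 13 of 16 control arrays. A_54_P3298 and A_54_P3297 had no spot well above background on any array, with processed means from -5.32 to 6.18. Only A_54_P3300 and A_54_P3299 can therefore speak on a change.

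**Figure D3:**
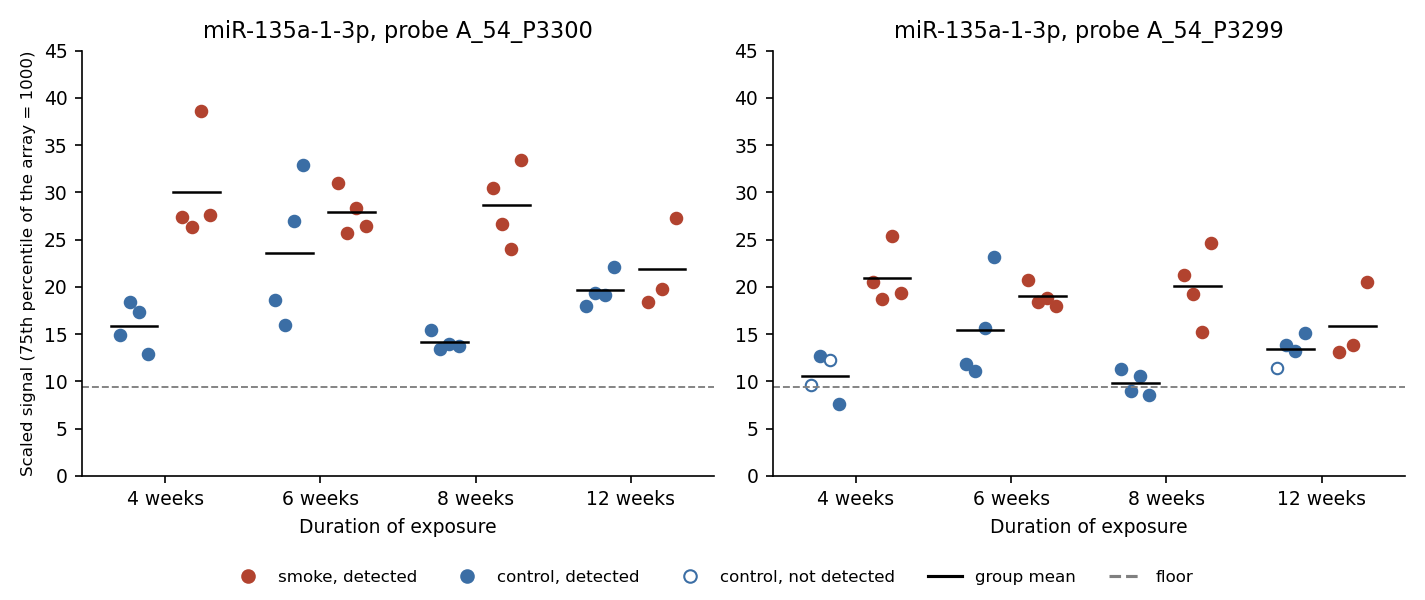
Scaled signal of the 2 detected miR-135a-1-3p probes on each array (linear axis; 1000 is the array's 75th percentile), by duration, in smoke (red) and control (blue) lungs. Filled points are detected arrays, open points are not detected, bars are group means and the dashed line is the floor at 9.36. With A_54_P3300 the smoke and control points are separate at 4 and 8 weeks and overlap at 6 and 12 weeks.

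After scaling, the smoke means of A_54_P3300 were 30.0 ± 5.80, 27.9 ± 2.37, 28.7 ± 4.17 and 21.9 ± 4.80 (SD) at 4, 6, 8 and 12 weeks. The control means were 15.9 ± 2.48, 23.6 ± 7.74, 14.1 ± 0.91 and 19.6 ± 1.75. Smoke minus control was 0.91, 0.29, 1.01 and 0.14 log2, and 0.59 ± 0.09 averaged (1.504-fold). The second probe gave 1.02, 0.36, 1.02 and 0.22 log2 on the values as measured. At 4 and 8 weeks every smoke array lay above every control array, after scaling. At 6 weeks control arrays 3 and 4 (27.0 and 32.9) lay within or above the smoke range of 25.7 to 31.04. Before scaling they read 39.0 and 33.5, below the 44.7 and 59.7 of control arrays 1 and 2. Their 75th percentiles were 1446 and 1018, against 2398 and 3725 on arrays 1 and 2. Arrays 3 and 4 also stood apart in their multiciliated, erythroid and endothelial sums. Without them, an alternative chosen after seeing the data, the difference at 6 weeks was 0.69 log2 and the averaged one also 0.69. The part of those cell types or of the brightness in the values of these arrays was not tested. At 12 weeks smoke arrays 1 and 2 (18.4 and 19.8) lay within the control range of 18.0 to 22.1. Without smoke array 3 of 12 weeks, the array with the liver miRNA, the difference at 12 weeks was -0.04 log2. Before scaling that array read 36.7, against 37.4 and 37.1 on smoke arrays 1 and 2. Its 75th percentile was 1341, against 2029 and 1874. The share of all miRNAs higher in smoke in the averaged comparison was 15.6%.

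The differences at 8 and 12 weeks moved with the scaling, and so did the median of all miRNAs. The control arrays of 8 weeks were bright, with a mean 75th percentile of 2692 against 1516 for the smoke arrays, and those of 12 weeks were dim, 1394 against 1748. Without any scaling, the difference was 0.84, 0.28, 0.19 and 0.46 log2 at 4, 6, 8 and 12 weeks, so the 8 weeks value fell by most of its size and the 12 weeks value rose. The median of all miRNAs without scaling was -0.86 log2 at 8 weeks and 0.21 at 12 weeks. Relative to the median of all miRNAs, the values at 4, 6, 8 and 12 weeks were 0.74, 0.28, 1.05 and 0.25 log2 without scaling and 0.74, 0.28, 1.06 and 0.21 with it. Scaling shifts all signals of an array by the same log2 amount, apart from the floor. These values and their order are thus alike by construction and are no check on the scaling. With the 75th percentile also as a covariate in the fit, an alternative chosen after seeing the data, the values were 0.88, 0.29, 0.65 and 0.28 log2, or 0.72, 0.28, 0.82 and 0.30 relative to the median. With normexp background correction in place of the scanner's own, the values were -0.78, 0.13, 0.83 and -0.16 log2 at 4, 6, 8 and 12 weeks. The median of all miRNAs moved to -0.74, 0.02, 0.20 and -0.18 log2. Relative to that median the miR-135a-1-3p values were -0.04, 0.11, 0.62 and 0.02 log2.

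**Figure D4:**
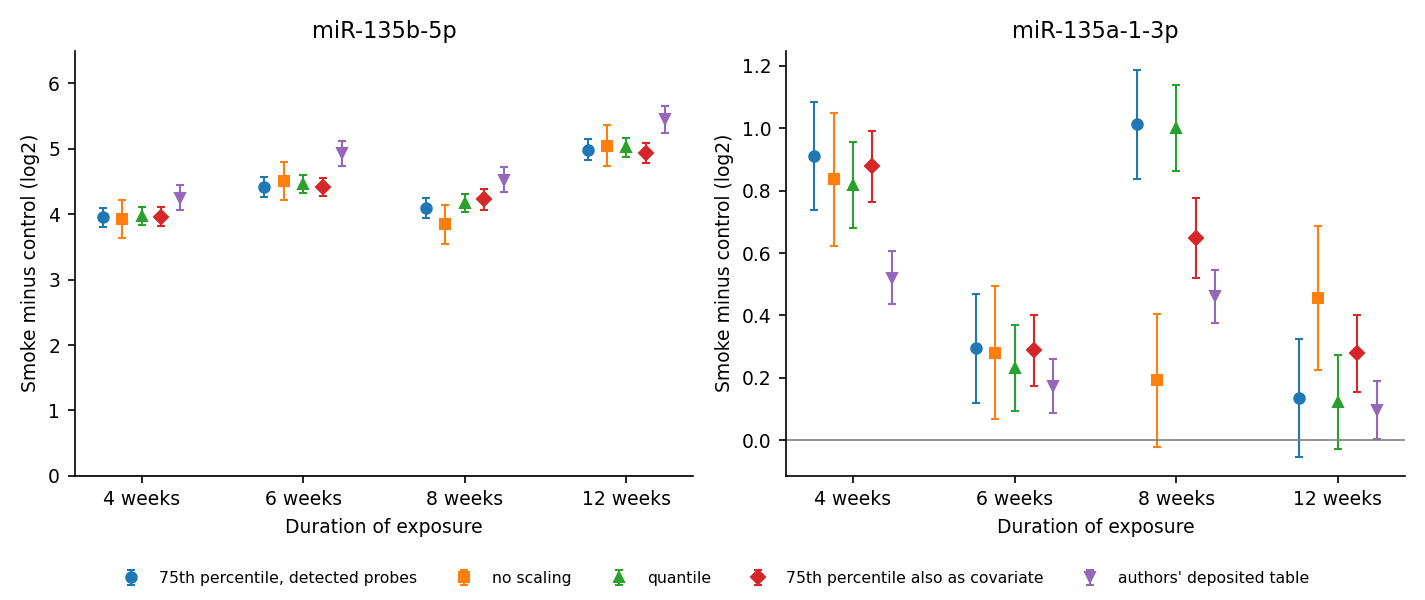
Smoke minus control (log2, with the model SE as error bars) for miR-135b-5p (left) and miR-135a-1-3p (right) at each duration under 5 treatments of the arrays. The axes of the panels differ. The miR-135b-5p values lie between 3.84 and 5.45 under these 5 treatments, and the miR-135a-1-3p value at 8 weeks runs from 0.19 without scaling to 1.01.

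The signal of miR-135a-1-3p rose less than in proportion to the brightness of the array. On the control arrays the slope of its log2 processed signal on the log2 75th percentile was 0.53 (Pearson r 0.771, permutation p 0.0004, adjusted 0.001; Spearman rho 0.771, permutation p 0.00098, adjusted 0.00163; n = 16). Without the 2 arrays farthest from the median, r was 0.617. On the smoke arrays the slope was 0.65 (r 0.671, permutation p 0.00709, adjusted 0.00886; rho 0.632, permutation p 0.0127, adjusted 0.0159; n = 15), and r was 0.48 without the 2 farthest arrays. Division by the 75th percentile therefore gives lower scaled values on bright arrays for this miRNA. For miR-135b-5p on the smoke arrays the slope was 1.62 (r 0.782, permutation p 0.00063, adjusted 0.00105; rho 0.832, permutation p 0.00022, adjusted 0.00055), and r was 0.746 without the 2 farthest arrays. The points share the day of the scan and the slides, and the durations are mixed within each condition.

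**Figure D5:**
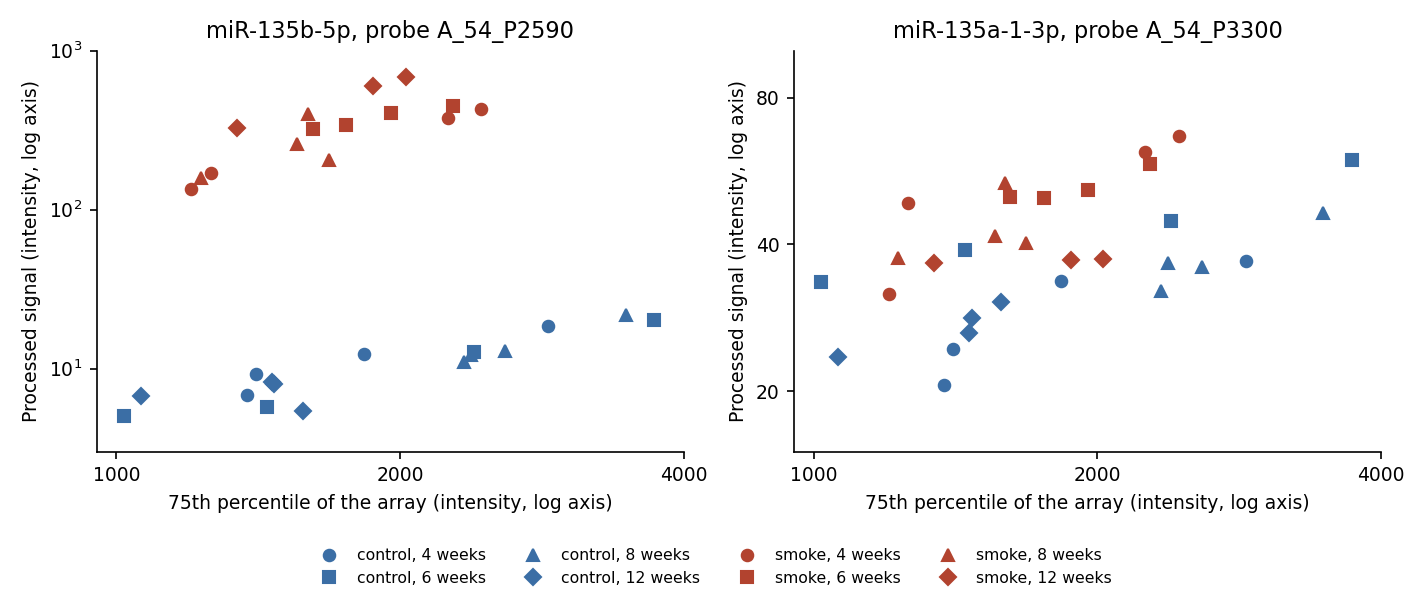
Processed signal against the array's 75th percentile (both log axes, scanner intensity) for the brightest probe of each miRNA, 1 point per array, with colour for smoke (red) or control (blue) and shape for the duration. The control points of miR-135b-5p rise with a slope of 1.07 and those of miR-135a-1-3p with a slope of 0.53.

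Among the smoke arrays, miR-135a-1-3p did not pass the test for a difference between durations (limma F test, adjusted p 0.329). Its 12 minus 4 weeks difference was -0.46 ± 0.19 log2 and did not pass either (limma, adjusted p 0.2). With the 75th percentile as a covariate both passed, at adjusted p 0.0252 for the F test and 0.0214 for the difference of -0.45 ± 0.12. In that fit, chosen after seeing the data, 96 of 270 miRNAs passed the F test, against 7 in the main fit. The pass is therefore not particular to miR-135a-1-3p. The directions of miR-135b-5p and miR-135a-1-3p from 4 to 12 weeks of smoke were thus opposite in the group means, and the difference between these changes was not tested. Their deviations from the group means over the 15 smoke arrays had a Pearson r of 0.0316 (permutation p 0.91, adjusted 0.91) and a Spearman rho of 0.00714 (permutation p 0.985, adjusted 0.985), and r was -0.482 without the 2 arrays farthest from the median.

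Among the control arrays, miR-135a-1-3p differed between durations (limma F test, adjusted p 0.0399), as did 6.67% of all miRNAs. From low to high its scaled means were 14.1 at 8 weeks, 15.9 at 4 weeks, 19.6 at 12 weeks and 23.6 at 6 weeks. Each range overlapped the next higher one. The widest group was 6 weeks, from 16.0 to 32.9. Its highest arrays, 3 and 4, had the lowest 75th percentiles of the group, 1446 and 1018. Before scaling the means were 27.1 at 12 weeks, 28.95 at 4 weeks, 37.8 at 8 weeks and 44.2 at 6 weeks. The order thus depends on the scaling. The mean 75th percentile was 2692 at 8 weeks and 1394 at 12 weeks. The control arrays also enter the differences on which the miRNA was selected. The call was lost in 7 of 19 other treatments of the data, among them the second brightest probe (adjusted p 0.121) and leaving out control arrays 3 and 4 of 6 weeks, whose cell type sums stood apart (0.0682), and in 14 of the 31 fits that left out 1 array, with adjusted p up to 0.107 without control array 3 of 6 weeks. The 7 include the floor 4 times higher, which set every control array to the floor and left nothing to test. Control miR-135b-5p was at the floor on all 16 arrays, so no such test was made for it.

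The limma F test of whether the smoke minus control difference of miR-135a-1-3p varied with duration gave an adjusted p of 0.0481, and 6.3% of all miRNAs passed it. It is built from the contrasts on which the miRNA was selected, so nothing is read from it. The value was above 0.05 in 10 of 19 other treatments, among them no scaling (adjusted p 0.211), the slide as a block (0.0547) and the replicate number as a block (0.0597), and in 20 of 31 fits that left out 1 array, with adjusted p up to 0.104 without smoke array 1 of 12 weeks. The 10 include the floor 4 times higher, above which only smoke array 3 of 4 weeks lay, so that fit had almost nothing to test.

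miR-135a-5p, the partner arm of miR-135a-1-3p, was not detected on any array. Its 2 probes had processed means from 0.31 to 7.24, and no spot was well above background. On the smoke arrays the ranges were 1.86 to 6.80 for A_54_P1066 and 0.31 to 4.05 for A_54_P4370. On the control arrays they were 3.42 to 7.24 and 0.49 to 5.16, so smoke and control overlapped throughout. In the authors' deposited table its group means lay between 2.84 and 3.02 on the log2 scale. The dim readings held also on the 12 weeks smoke arrays, where miR-135b-5p was brightest. The array held no probe named for miR-135b-3p or miR-135a-2-3p.

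The profile of miR-135b-5p over the 8 group means, set against those of all other miRNAs, is mostly the step from control to smoke on which it was selected, and miRNAs with that step are near it by construction. By Euclidean distance between standardised profiles, which runs from 0 for the same shape, the nearest were miR-21-5p (0.414), miR-146b-5p (0.426), miR-132-3p (0.784), miR-34a-5p (0.898) and miR-31-3p (1.08). miR-21-5p is known for its part in inflammation and tissue remodelling, miR-146b-5p for damping NF-kB signalling, and miR-34a-5p as a target of p53. miR-21-5p also rose between 4 and 12 weeks of smoke, by 0.59 log2 (limma adjusted p 0.000382). miR-146b-5p was 0.21 log2 higher at 12 weeks and did not pass (limma adjusted p 0.2). The nearest to miR-135a-1-3p were farther off: miR-15b-3p (0.942), miR-1897-5p (1.46), miR-1892 (1.52), miR-805 in its older version (1.52) and miR-132-3p (1.55). For miR-15b-3p, miR-1897-5p, miR-1892 and miR-805 the control means, too, were lowest at 8 weeks (-5.79, -6.10, -5.72 and -6.02 log2). For miR-132-3p the lowest control mean was at 4 weeks, -6.21 log2. The profiles share arrays and scaling, and the measure is a description over 8 groups.

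In size of the averaged difference, miR-135b-5p was first at 4.36 log2, followed by miR-146b-5p (1.24), miR-21-5p (1.196) and miR-122-5p (1.02). The last did not pass (limma adjusted p 0.13), and without smoke array 3 of 12 weeks it was 0.33 log2 (adjusted p 0.104). miR-135a-1-3p was 9th at 0.59 log2, between miR-551b-3p (0.61) and miR-689 in its older version (0.58). These 3 differences lay closer together than their SEs of 0.13, 0.09 and 0.13. miR-689 also had its highest value at 8 weeks, 0.94 log2, and lower values at 6 and 12 weeks, 0.42 and 0.37.

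Of 12 miRNAs known to respond to inflammation, interleukin-1 or NF-kB, 9 were tested, and 7 were higher in smoke, 0 lower and 2 did not pass in the averaged comparison (median 0.43 log2, against -0.01 over all miRNAs tested). Of all 270 miRNAs tested, 15.6% were higher and 11.5% lower, 42 and 31 miRNAs, and without scaling these numbers were 8 and 21. Besides miR-146b-5p, miR-21-5p and miR-132-3p, the risers were both arms of miR-31 and the following pair. miR-155-5p, an activator-type miRNA of immune cells, rose by 0.54 ± 0.11 log2 (limma adjusted p 0.000311), and miR-146a-5p, a brake on NF-kB signalling, by 0.43 ± 0.08 log2 (adjusted p 8.52e-05). miR-223-3p of neutrophils (0.34 log2, adjusted p 0.0681) and miR-212-3p (0.08 log2, 0.644) did not pass. miR-9-5p, miR-147-3p and miR-187-3p were too dim to test. Between 4 and 12 weeks of smoke, 1 of the 9, miR-21-5p, was higher and 0 were lower. These miRNAs were listed with earlier results of these data known, so the count is no independent evidence of direction.

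Markers of cell types moved in part with smoke, against the 15.6% higher and 11.5% lower among all miRNAs. Of 8 epithelial miRNAs, 3 rose (miR-183-5p by 0.39, miR-182-5p by 0.35 and miR-429-3p by 0.27 log2), 0 fell and 5 did not pass. Their summed scaled level ranged from 6508 to 8677 on smoke arrays and from 6138 to 7628 on control arrays. Of 5 leukocyte miRNAs, miR-155-5p rose, miR-142-3p and miR-142-5p fell by 0.65 log2 each and 2 did not pass. Without smoke arrays 2 and 3 of 4 weeks both still fell, by 0.41 and 0.48 log2 (limma adjusted p 0.00296 and 0.000191). The leukocyte list had sums of 5107 to 10750 in smoke and 7040 to 10240 in control. Of 3 multiciliated miRNAs, miR-449a-5p rose by 0.67 log2 and 2 did not pass, with sums of 966.5 to 3062 in smoke and 1262 to 2639 in control. miR-126-3p, 1 of 2 endothelial miRNAs, fell by 0.13 log2, with sums of 26200 to 32350 in smoke and 27230 to 37000 in control. The 3 striated muscle, 2 erythroid and 2 squamous miRNAs tested did not pass, with limma adjusted p from 0.13 for miR-203-3p to 0.586 for miR-144-3p. Striated muscle sums ranged from 1335 to 6964 in smoke and from 838.4 to 6661 in control, erythroid sums from 60970 to 84010 and from 52720 to 92030, and squamous sums from 121.8 to 230 and from 142 to 483. The part of these cell types in the miR-135 values was not tested.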

How the data were processed

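The files are scanner outputs of 31 arrays and a table of the whole series. Spot values are processed signal intensity, background-subtracted by Agilent Feature Extraction 10.7.3.1, per the file headers, and the well-above-background and outlier marks were set by the same software, per the file headers. The series table deposited by the authors is in log2 and covers 650 entries; how it was normalized the sources used here do not say. The medians of its columns are 2.71 to 2.85. Its scale and direction were taken from its correlation with the scaled scanner values, 0.981 to 0.989 per array, and its centring stays unknown.

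Control and outlier spots were left out, spots of a probe averaged, each array divided by its 75th percentile over 385 probes detected on all arrays, signals floored at log2 -6.74, and the brightest probe taken per miRNA. Testing required detection on 75% of a group's arrays in at least 1 group. Of the miRNAs that met this, 2 at the floor on every array were dropped, which left 270. limma 3.58.1 in R 4.3.3 was fitted with 1 mean per group and 23 residual degrees of freedom, on all 31 arrays. Adjusted p-values are Benjamini-Hochberg over the 270 miRNAs, with a threshold of 0.05. Correlations used 100000 permutations, two-sided, in Python 3.11.15. The fit was tested on simulated data.

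Named miRNAs are the members, every miR-135 arm on the array, the 5 nearest profiles of each member, the neighbours in size and members of the lists. Members and lists were chosen with earlier results of these data known. Groups and replicate numbers came from the titles. The numbers were not used to pair the arrays in the main fit. Arrays of the same number shared a slide, except those of 12 weeks control. Over 105 pairs of same-numbered arrays of different groups, 46 of the correlations of their deviations from the group means exceeded 0.1. The median correlation was 0.04. For arrays of the same slide, 55 of 105 exceeded 0.1, with a median of 0.12, against -0.05 for other pairs. The number of arrays limits the precision. Other scalings, floors, filters, probe rules, background corrections, blocks and left-out arrays were tried. The scanner files hold no mean spot signal, so normexp used the median spot signal, a change made after seeing the data. The 75th percentile as a covariate, the second brightest probe and leaving out the 3 control arrays with miR-135b-5p detected or control arrays 3 and 4 of 6 weeks were also added after seeing the data.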

Additional observations from a re-analysis of the deposited data

Results flagged for a closer look

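For miR-135b-5p, control array 1 of 4 weeks had a scaled log2 value of -7.65, apart from the other 3 control arrays of 4 weeks, which lay close together. All 4 are under the floor. For miR-135a-1-3p, smoke array 3 of 4 weeks had a scaled log2 value of -4.69, above the other 3 smoke arrays of that duration. Without it the difference at 4 weeks was 0.78 log2. 14 groups of 4 arrays were examined for such outlying values, and chance gives about 1 in 20. For miR-135a-1-3p, the limma F test of whether the smoke minus control difference varied with duration gave an adjusted p of 0.0481, with all 4 differences above 0. The miRNA was selected on these differences, so the value is a description. It was above 0.05 in 10 of 19 other treatments and in 20 of 31 fits that left out 1 array.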

How the results depend on the processing

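The averaged smoke minus control difference of miR-135b-5p stayed above 0 in all 18 alternatives and was 4.31 to 4.40 log2 with single arrays left out. It was 6.22 with the scanner's summed signal, 2.36 with the floor 4 times higher, 5.18 with it 4 times lower, 4.79 in the authors' deposited table and 2.24 with normexp. For miR-135a-1-3p it was 0.55 to 0.63 with single arrays left out and 0.31 in the authors' deposited table. It was 0.30 as the mean of all probes, with A_54_P3298 and A_54_P3297 at the floor on every array. With the higher floor it was 0.0029, but only smoke array 3 of 4 weeks (38.66) lay above that floor. The signal was thus cut off, and the 0.0029 says nothing on the difference. With normexp it was 0.0055, or 0.15 relative to the median of all miRNAs. By duration normexp gave -0.78, 0.13, 0.83 and -0.16 log2 at 4, 6, 8 and 12 weeks. With single arrays left out, its 12 weeks value was -0.036 (without smoke array 3 of 12 weeks) to 0.249.

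The test between durations of smoke for miR-135b-5p had adjusted p of 0.312 without scaling, 0.419 with the summed signal, 0.364 with only smoke arrays and 0.999 with normexp, and 1.32e-06 to 0.0319 with single arrays left out. Its 12 minus 4 weeks difference did not pass under the same settings, at 1.05, 1.02, 1.03 and 0.87 log2 (0.91 to 1.17 with single arrays left out). For miR-135a-1-3p, these results passed only with the 75th percentile as a covariate, 0.0252 and -0.45 log2, where 96 of 270 miRNAs passed the F test. With single arrays left out they were 0.166 to 0.645 and -0.63 to -0.33.

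The control-duration test of miR-135a-1-3p was lost with the summed signal (0.052), the mean of all probes (0.0783), the higher floor (1.0), normexp (0.124), the second probe (0.121), without the 3 control arrays with miR-135b-5p detected (0.0617) and without control arrays 3 and 4 of 6 weeks (0.0682), and ran from 0.00987 to 0.107 with single arrays left out. The test of a differing smoke effect was lost without scaling (0.211), with all probes averaged (0.0775), without the detection filter (0.0502), the higher floor (0.989), slide block (0.0547), replicate block (0.0597), without smoke arrays 2 and 3 of 4 weeks (0.0831), normexp (0.412), the second probe (0.0862) and without those 3 control arrays (0.0649), and ran from 0.022 to 0.104 with single arrays left out. The replicate block changed no other call. The higher floor left only smoke array 3 of 4 weeks above it for miR-135a-1-3p, so nothing is read from the tests lost under it.

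miRNAs higher in smoke numbered 42, and 8 without scaling, 27 with the higher floor, 6 with normexp and 37 to 54 with single arrays left out. Those differing between smoke durations numbered 7, and 3 with the 75th percentile over all probes, 15 with quantile normalization, 0 without scaling, 2 with the summed signal, 4 on miRNAs detected on every array, 20 in the authors' deposited table, 0 with only smoke arrays, 0 with normexp, 96 with the covariate, 4 with the second probe, 13 without control arrays 3 and 4 of 6 weeks and 1 to 38 with single arrays left out. At an unadjusted p under 0.05 there were 52. The cause of these shifts was not tested. Only detection on every array gave no miR-135b-5p value.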
